A study of Homo sapiens with 6 samples.

Results

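The assembly factors of respiratory complex I were examined in LNCaP cells, an established human prostate cancer line that responds to androgen, sorted by aldehyde dehydrogenase (ALDH) activity. The 10 genes were chosen by name and function: NDUFAF1 to NDUFAF7, ECSIT, ACAD9 and TIMMDC1. All 10 were present among the 16000 genes of the deposited table. NDUFAF4 had been picked for its low unadjusted p between the groups, so its difference is given as a description without a test. Poly(A) RNA was sequenced from 3 samples of ALDH high cells, the brightest 10% in the ALDEFLUOR assay, and 3 samples of ALDH low cells, the dimmest 10%. ALDEFLUOR is a fluorescent substrate of ALDH. Both groups were LNCaP cells kept in RPMI-1640 with 10% fetal bovine serum, with no further treatment named. The labels do not say whether the samples of 1 group were sorted separately. The p-values here therefore cover the spread among these samples alone, which may be technical. In such bulk samples, fewer cells of a kind and less RNA per cell cannot be told apart.

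Complex I oxidises NADH and pumps protons across the inner mitochondrial membrane. Its subunits come from both the nuclear and the mitochondrial genome and are joined as modules: an N module that takes up NADH, a Q module that reduces ubiquinone, and membrane modules that pump protons. Assembly factors hold, modify or insert these intermediates and are absent from the finished enzyme. Inherited defects in many of them cause complex I deficiency.

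Values are normalized reads: the read count of a gene over the size factor that the authors used for that library. The libraries held 23817310 to 30617873 recovered reads over the listed rows. They did not separate by group: on the first principal component (70.2% of the variance, over the 500 genes that varied most), ALDH high 1 and 3 lay with ALDH low 2, and ALDH high 2 with ALDH low 1 and 3. All 10 luminal prostate markers were present, with summed levels of 203968 to 216029 in ALDH high and 197529 to 232196 in ALDH low. Of other cell types the table held 1 of 4 leukocyte markers (CD68, at 16.4 to 32.0 in ALDH high and 19.9 to 27.9 in ALDH low), 1 of 4 endothelial markers (VWF, at 189 to 417 in ALDH high and 235 to 386 in ALDH low) and 2 of 5 fibroblast markers. The fibroblast markers COL1A1 and PDGFRB, which carcinoma cells can also express, summed to 1539 to 1846 in ALDH high and 881 to 1519 in ALDH low. This sum was higher in every ALDH high library than in any ALDH low library, and their part in the results below was not tested.

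NDUFAF4 was lower in every ALDH high library than in any ALDH low library. NDUFAF4 is a Q-module assembly factor that works in a complex with NDUFAF3. The gene (ENSG00000123545) lies on chromosome 6 at 96889313 to 96897881 (GRCh38, minus strand). It had 851, 793 and 767 normalized reads in ALDH high libraries 1, 2 and 3, against 1381, 1012 and 1119 in ALDH low libraries 1, 2 and 3. The ALDH high values lay close together, while ALDH low 1 stood above the other ALDH low libraries. The means were 804 ± 43.3 in ALDH high cells against 1171 ± 190 in ALDH low cells (SD, n = 3 each), a ratio of 0.686 and a log2 difference of −0.53. Its unadjusted limma p, which chose it, was 0.0081, rank 5 of 16000 genes. In the authors' deposited table that p was 0.0037, with a log2 fold change of 0.54 taken as ALDH low over ALDH high. The authors' adjusted p for NDUFAF4 was 0.998, and 0 rows of that table had one under 0.05. Both unadjusted p-values rest on the same reads. In the whole table, 3.32% of genes had all ALDH high values below all ALDH low values. Recovered reads of NDUFAF4 ran from 671 to 1594 per library. GENCODE 29 lists 4 processed pseudogenes of NDUFAF4, none of them in the table. Reads that match a copy as well as the gene are lost when only uniquely placed reads are counted, so its level is uncertain to that extent.

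The 250 bases before the gene start are shown for NDUFAF4, with the lowest difference of the 10 genes, and for ACAD9, with the highest. They are also shown for TIMMDC1, which carries the same motif as NDUFAF4 and was picked with its values known. The sequences are RefSeq's on GRCh38.p14, written 5′ to 3′ along the gene. NDUFAF4 is at chr6:96897892-96898141 on the minus strand, ACAD9 at chr3:128879370-128879619 on the plus strand and TIMMDC1 at chr3:119498297-119498546 on the plus strand. Capitals mark the ETS/GABP motif CCGGAAG or its reverse complement in NDUFAF4 and TIMMDC1, and the NRF1 motif in ACAD9, searched as GCGC, any pair of bases and GCGC again.
NDUFAF4: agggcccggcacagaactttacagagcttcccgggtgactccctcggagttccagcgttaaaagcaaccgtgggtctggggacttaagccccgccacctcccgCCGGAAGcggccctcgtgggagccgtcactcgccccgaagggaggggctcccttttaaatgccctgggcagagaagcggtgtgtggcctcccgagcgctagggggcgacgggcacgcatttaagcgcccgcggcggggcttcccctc
ACAD9: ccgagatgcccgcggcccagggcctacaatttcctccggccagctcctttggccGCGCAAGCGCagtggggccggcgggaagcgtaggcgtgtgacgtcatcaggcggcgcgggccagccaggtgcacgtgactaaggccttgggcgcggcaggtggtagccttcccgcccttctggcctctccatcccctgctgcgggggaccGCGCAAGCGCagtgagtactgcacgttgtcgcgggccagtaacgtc
TIMMDC1: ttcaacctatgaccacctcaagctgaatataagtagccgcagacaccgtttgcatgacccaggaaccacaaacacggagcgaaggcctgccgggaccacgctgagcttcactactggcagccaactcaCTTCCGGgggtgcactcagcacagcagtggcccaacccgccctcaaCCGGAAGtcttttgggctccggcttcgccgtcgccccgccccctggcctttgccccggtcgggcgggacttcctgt
NRF1 and GABP are transcription factors known to act on many nuclear genes of the respiratory chain. In NDUFAF4 the ETS/GABP letters start 147 bases before the gene start, and in TIMMDC1 they start 122 and 76 bases before it. The NRF1 letters stand 196 and 46 bases before the start of ACAD9. Promoter entries existed for 9 of the 10 genes, all but NDUFAF6, and numbered 13, since NDUFAF3 and ECSIT have several. Searched on both strands, the NRF1 letters were in 2 of these 13 entries (ACAD9 and NDUFAF5) and in 7.16% of all 35116 promoter entries. The ETS/GABP letters were in 2 of the 13 (NDUFAF4 and TIMMDC1), against 8.52% of all entries. The ERR motif AAGGTCA was in 1 of the 13 (ECSIT), against 3.44%, and the YY1 motif AAGATGGCG was in 0, against 0.652%. These matches are letters in a window, no binding was measured, and a link of the motifs to the levels was not tested.

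**Figure D1:**
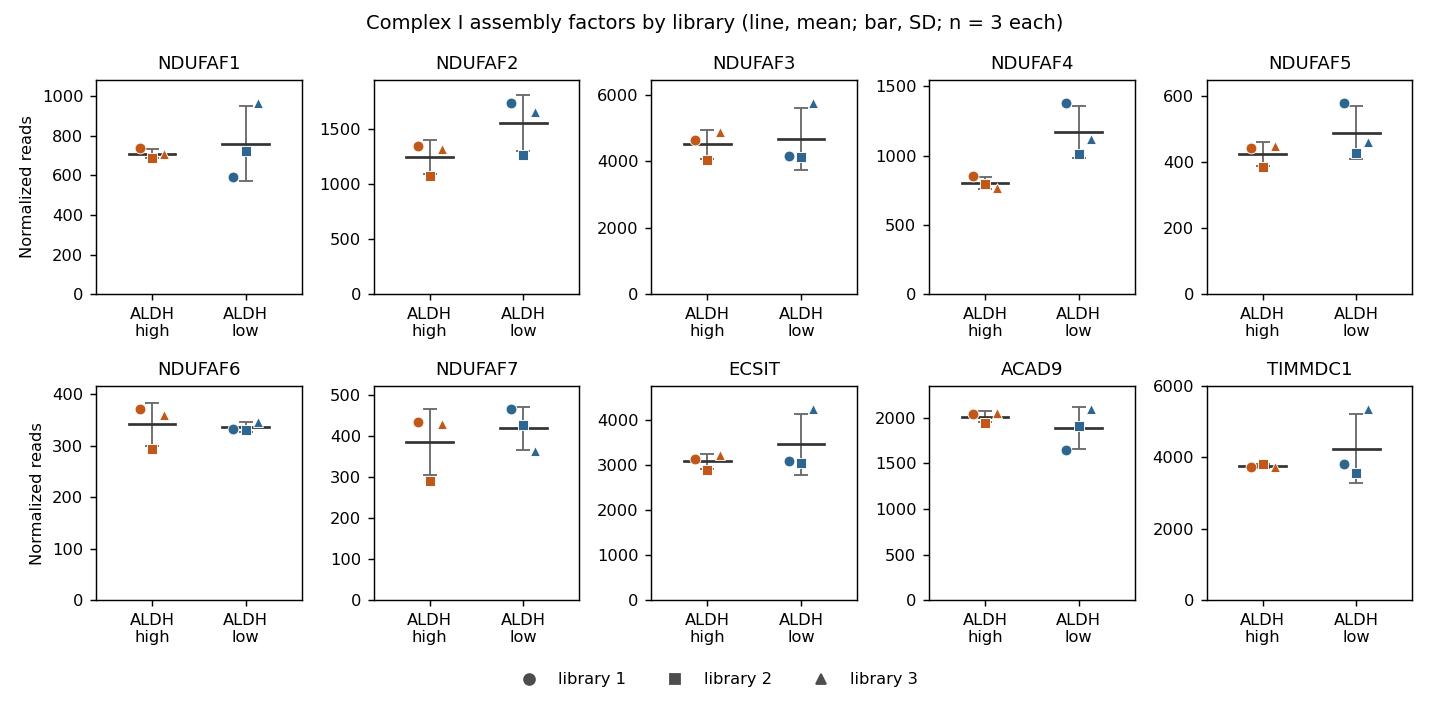
Normalized reads (vertical axis, from 0) of the 10 assembly factors in ALDH high and ALDH low libraries, with markers for the library number, a line for the mean and a bar for the SD (n = 3 each). NDUFAF4 is the 1 panel in which the groups do not overlap, with ALDH high at 767 to 851 and ALDH low at 1012 to 1381.

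NDUFAF3, the partner of NDUFAF4 in the Q module, did not show the same values. It had 4654, 4036 and 4874 normalized reads in ALDH high libraries 1, 2 and 3, against 4170, 4128 and 5769 in ALDH low libraries 1, 2 and 3. The groups overlapped, and the highest value was that of ALDH low 3. The log2 difference was −0.04 (95% interval −0.42 to 0.34, limma), and its sign turned with total-count scaling. That scaling moved the median difference of all genes from 0.02 to 0.06. Per kilobase of exon, NDUFAF3 exceeded NDUFAF4 5.70-, 5.31- and 6.63-fold in ALDH high libraries 1, 2 and 3, and 3.15-, 4.26- and 5.38-fold in ALDH low 1, 2 and 3. These ratios overlapped between the groups at ALDH high 2 and ALDH low 3.

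The other factors of the Q module and of the membrane subunit ND1 beside it are NDUFAF5, NDUFAF6 and NDUFAF7. NDUFAF5 hydroxylates an arginine of the Q-module subunit NDUFS7. It had 441, 383 and 448 normalized reads in ALDH high libraries 1, 2 and 3, against 579, 427 and 461 in ALDH low libraries 1, 2 and 3. ALDH low 1 was the highest, and ALDH low 2 lay among the ALDH high values. Its log2 difference was −0.20 (95% interval −0.60 to 0.21). NDUFAF7 is a mitochondrial methyltransferase. It had 434, 291 and 428 in ALDH high libraries 1, 2 and 3, against 465, 427 and 362 in ALDH low libraries 1, 2 and 3, with ALDH high 2 the lowest of the 6. Its log2 difference was −0.14 (95% interval −0.60 to 0.33), and 0.05 without ALDH high 2. NDUFAF6, which is needed for ND1 to accumulate, had 372, 294 and 360 in ALDH high libraries 1, 2 and 3, against 333, 330 and 347 in ALDH low libraries 1, 2 and 3. Its ALDH low values lay within the range of ALDH high, with a log2 difference of 0.02 (95% interval −0.38 to 0.41) that turned negative without ALDH high 1 or without ALDH high 3, at −0.05 and −0.03. NDUFAF7 had the fewest recovered reads of the 10 genes after NDUFAF6, and the lowest count in any library was 315.

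NDUFAF1, ECSIT and ACAD9 are members of the mitochondrial complex I intermediate assembly (MCIA) complex, which builds the membrane module around ND2. NDUFAF1 had 735, 688 and 705 normalized reads in ALDH high libraries 1, 2 and 3, against 590, 722 and 966 in ALDH low libraries 1, 2 and 3. The ALDH high values lay inside the range of ALDH low, whose libraries 1 and 3 were the lowest and the highest of all. Its log2 difference was −0.07 (95% interval −0.50 to 0.36), and 0.12 without ALDH low 3. ECSIT, which is also known as an adaptor in Toll-like receptor signalling, had 3146, 2895 and 3220 in ALDH high libraries 1, 2 and 3, against 3094, 3050 and 4254 in ALDH low libraries 1, 2 and 3. Here ALDH low 3 alone stood out, and the log2 difference of −0.15 (95% interval −0.51 to 0.21) was 0.01 without it. ACAD9, a relative of the acyl-CoA dehydrogenases, had 2042, 1943 and 2058 in ALDH high libraries 1, 2 and 3, against 1643, 1912 and 2098 in ALDH low libraries 1, 2 and 3. It had the highest log2 difference of the 10 genes, 0.10 (95% interval −0.22 to 0.43), and 0.01 without ALDH low 1, its lowest library. TIMMDC1, an inner-membrane protein that works with the MCIA factors and on the ND1 part of the membrane arm, had 3723, 3826 and 3738 in ALDH high libraries 1, 2 and 3, against 3819, 3571 and 5361 in ALDH low libraries 1, 2 and 3. Its 3 ALDH high values and ALDH low 1 and 2 lay close together, with ALDH low 3 apart. The log2 difference was −0.15 (95% interval −0.53 to 0.23), and 0.03 without ALDH low 3.

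NDUFAF2, a paralog of the subunit NDUFA12 that binds a late intermediate before the N module joins, had the largest difference after NDUFAF4. It had 1352, 1074 and 1318 normalized reads in ALDH high libraries 1, 2 and 3, against 1742, 1269 and 1659 in ALDH low libraries 1, 2 and 3. ALDH low 1 and 3 lay above every ALDH high library, while ALDH low 2 lay within their range. The means were 1248 ± 152 in ALDH high cells against 1557 ± 253 in ALDH low cells (SD, n = 3 each). The log2 difference was −0.31 (95% interval −0.69 to 0.07, limma adjusted p = 0.984). Its paralog NDUFA12 averaged 2170 ± 259 in ALDH high cells against 2272 ± 524 in ALDH low cells, a log2 difference of −0.05 (95% interval −0.46 to 0.36).

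Over the 10 genes, the log2 difference lay below 0 in 8 and above 0 in 2, with a median of −0.14, against 47.7% of all genes below 0 and a median of 0.02. Limma called 0 of the 10 at an adjusted p under 0.05, against 0% of all genes, with a smallest adjusted p of 0.984 over the table. At an unadjusted p under 0.05, limma counted 338 of 16000 genes (2.11%), edgeR 357 and DESeq2 355, and each of these tools called 0 genes after adjustment. For the 9 genes other than NDUFAF4, every 95% interval included 0 and their median difference was −0.14. The groups did not overlap in 1 of the 10, which was NDUFAF4 and had been picked, against 6.99% of all genes in either direction. The count of members below 0 rested on single libraries: it was 4 of 10 without ALDH low 3, with a median of 0.02, and 6 of 10 without ALDH high 2, with a median of −0.08. With scaling without the mitochondrial genome it was 7 of 10, also with a median of −0.08. That scaling raised the median of all genes tested from 0.02 to 0.07. With both libraries numbered 2 left out, a setting chosen after seeing the data because they lay on the other group's side of the first component, limma called 0 of the 10, against 0.669% of all genes.

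**Figure D2:**
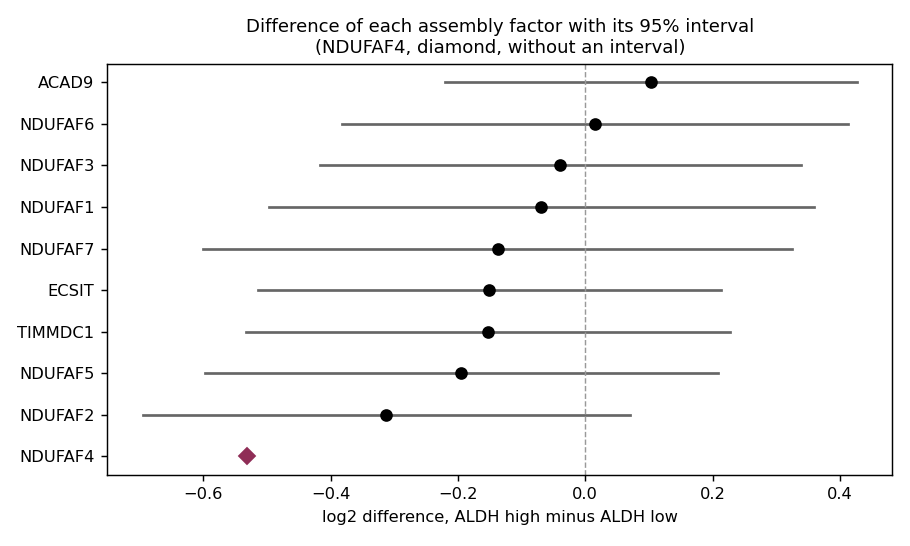
The log2 difference, ALDH high minus ALDH low (horizontal axis), of each assembly factor, with the 95% limma interval as a line for all but NDUFAF4, which was picked for this difference and is drawn as a diamond without one. The 9 intervals shown include 0, and the points run from −0.53 for NDUFAF4 to 0.10 for ACAD9.

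The 10 genes split by the library in which they were highest, a grouping made after their values were seen. ALDH low 3 held the highest value of 5 of them (NDUFAF1, NDUFAF3, ECSIT, ACAD9 and TIMMDC1). These include NDUFAF1, ECSIT and ACAD9, the MCIA members among the 10. ACAD9 was nearly level, at 2098 in ALDH low 3 and 2058 in ALDH high 3. TMEM126B, an MCIA protein outside the 10, was highest in ALDH low 1. Of the 10, ALDH low 1 held the highest value of 4 (NDUFAF2, NDUFAF4, NDUFAF5 and NDUFAF7), and ALDH high 1 that of NDUFAF6. Among the 11506 genes that averaged 100 or more normalized reads, ALDH low 3 was the highest in 30.9% and ALDH low 1 in 20.9%. At the other end, ALDH high 2 was the lowest library in 6 of the 10 genes, against 18.6% of those genes. NDUFAF1 and NDUFAF4 were far apart in ALDH low 1: relative to its mean over the 6 libraries, NDUFAF1 stood at −0.30 on the log2 scale and NDUFAF4 at 0.52. In ALDH low 3 the same genes stood at 0.41 and 0.21.

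**Figure D3:**
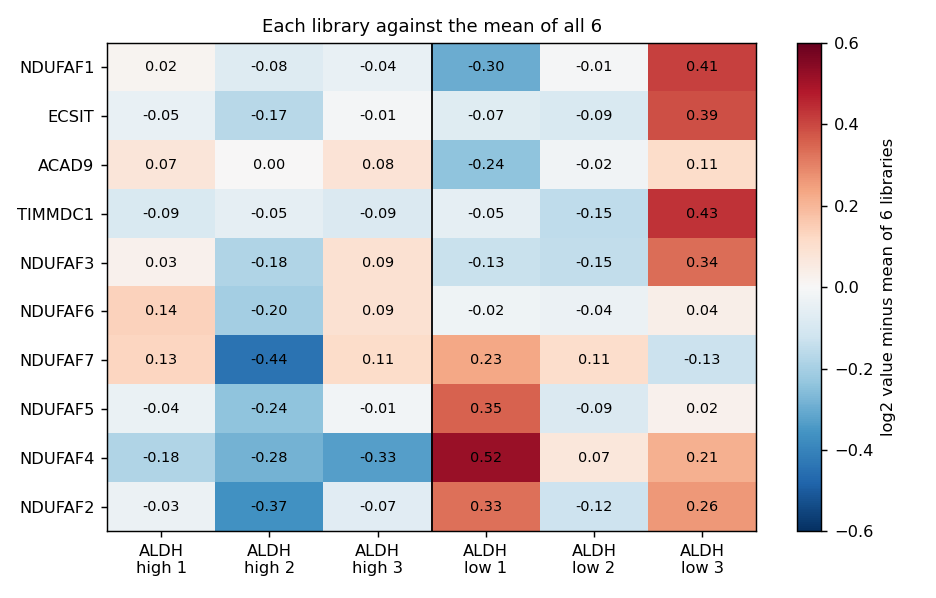
Each assembly factor (rows) in each library (columns) as its log2 normalized reads minus the mean of the 6 libraries, with colour and printed values on the same scale. The upper rows are highest in ALDH low 3, with TIMMDC1 at 0.43 and NDUFAF1 at 0.41, and the lower rows in ALDH low 1, with NDUFAF4 at 0.52 and NDUFAF5 at 0.35.

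Short transcripts as a class were low in ALDH high 2 and high in ALDH low 3. Of the 10 genes, 6 fell in the shortest of 4 equal classes of protein-coding genes by exon length (207 to 3448 bases), 2 in the second class (NDUFAF7 and ACAD9) and 2 in the third (NDUFAF5 and NDUFAF6). Genes of the shortest class stood at a median of −0.16 on the centred log2 scale in ALDH high 2 and at 0.25 in ALDH low 3. Genes of the longest class stood at 0.19 in ALDH high 2 and −0.26 in ALDH low 3. In ALDH low 1, where NDUFAF4 was highest, the shortest class stood at −0.04 and the longest at 0.06. The median log2 difference between the groups, ALDH high minus ALDH low, was −0.11 in the shortest and 0.12 in the longest class. With the median of its own class taken off in each library, a step chosen after seeing the data, the difference was below 0 in 7 of the 10 genes and above 0 in 3, with a median of −0.04. That of NDUFAF4 was −0.42, with values of −0.33 to −0.13 in ALDH high and −0.04 to 0.55 in ALDH low. NDUFAF4 had been picked for its difference in these same libraries. How many of all genes do not overlap after this step was not computed. NDUFAF2 and NDUFAF5 then stood at −0.20 and −0.23, and ECSIT and TIMMDC1 each at −0.04. Beyond these values, the part of transcript length in the differences was not tested.

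Levels of the 10 genes were compared per kilobase of exon, taken over all exons that GENCODE 29 lists for a gene, so that long rare exons lower a value. NDUFAF3 was the highest, with 1858 ± 178 normalized reads per kilobase in ALDH high cells against 1927 ± 384 in ALDH low cells (SD, n = 3 each). TIMMDC1 followed at 1378 ± 20.5 in ALDH high cells against 1557 ± 355 in ALDH low cells, then ECSIT at 1303 ± 71.9 in ALDH high cells against 1463 ± 288 in ALDH low cells, and NDUFAF2 at 1227 ± 149 in ALDH high cells against 1531 ± 248 in ALDH low cells. The ranges of these 4 neighbours overlapped over the 6 libraries, and the next gene lay below them without overlap. That gene was ACAD9, at 466 ± 14.3 in ALDH high cells against 436 ± 52.9 in ALDH low cells, followed by NDUFAF1 at 396 ± 13.4 in ALDH high cells against 424 ± 107 in ALDH low cells and NDUFAF4 at 316 ± 17.0 in ALDH high cells against 461 ± 74.7 in ALDH low cells, again with overlapping ranges. A lower set without overlap to these held NDUFAF7 at 105 ± 22.1 in ALDH high cells against 114 ± 14.3 in ALDH low cells, NDUFAF5 at 58.8 ± 4.93 in ALDH high cells against 67.7 ± 11.1 in ALDH low cells, and NDUFAF6 at 53.4 ± 6.57 in ALDH high cells against 52.5 ± 1.44 in ALDH low cells. The mean level of NDUFAF3 was 35.7 times that of NDUFAF6. The enzymes and the ND1 factor of the Q module had the lowest levels per kilobase of the 10, and both the most abundant gene and NDUFAF4 also belong to that module.

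**Figure D4:**
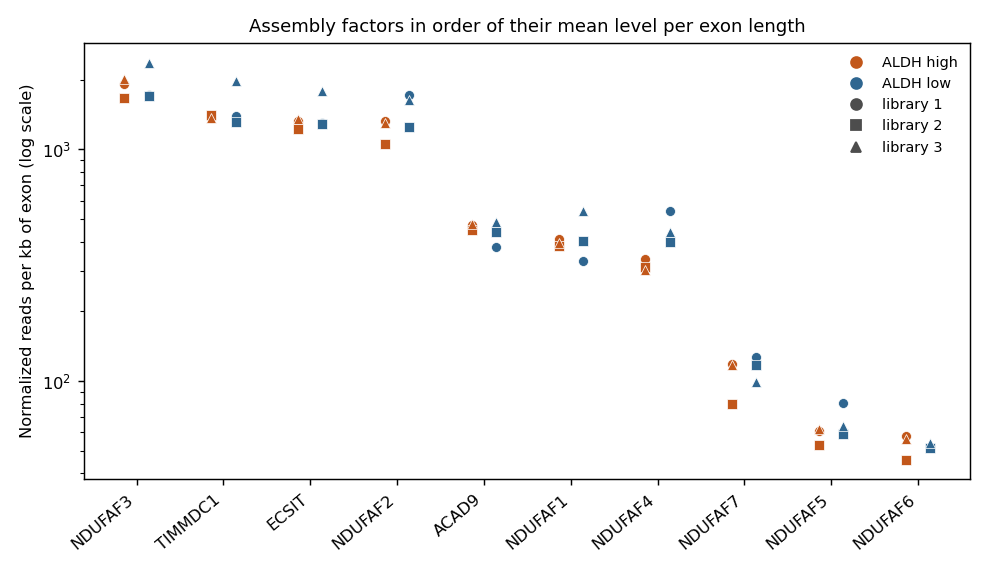
Normalized reads per kilobase of exon (vertical axis, log scale) of the 10 assembly factors in order of their mean, with ALDH high points left of ALDH low points and markers for the library number. The genes fall into 3 sets whose ranges do not overlap, from NDUFAF3 at 1658 to 2370 down to NDUFAF6 at 45.9 to 58.0.

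The other complex I assembly factors did not pass the test either, with 0 of 12 called by limma. Their log2 difference lay below 0 in 9 and above 0 in 3, with a median of −0.05. Without ALDH high 2 the count below 0 was 6 of 12, with a median of −0.01, and without ALDH low 1 it was 11 of 12, with a median of −0.12. The median was −0.11 without ALDH high 3 and −0.09 without ALDH high 1. With scaling without the mitochondrial genome, 5 of 12 lay below 0, and with total-count scaling 7 of 12. These scalings also raised the median of all genes tested, to 0.07 and 0.06, from 0.02 with the authors' size factors. TMEM126B, the remaining core MCIA protein in the list, averaged 1083 ± 158 reads in ALDH high cells against 1439 ± 302 in ALDH low cells (SD, n = 3 each). The log2 difference was −0.40 (95% interval −0.81 to 0.01). It had 1234, 919 and 1095 reads in ALDH high libraries 1, 2 and 3, against 1787, 1254 and 1276 in ALDH low libraries 1, 2 and 3, without overlap. TMEM70, which acts on the ND4 module and on ATP synthase, also did not overlap, as was so in the same direction in 3.32% of all genes. It averaged 1409 ± 49.7 in ALDH high cells against 1756 ± 221 in ALDH low cells, a log2 difference of −0.31 (95% interval −0.64 to 0.02). NDUFAF8, which stabilises NDUFAF5, averaged 1169 ± 124 in ALDH high cells against 1572 ± 558 in ALDH low cells, a log2 difference of −0.37 (95% interval −0.91 to 0.17). The lowest difference was that of LYRM2, a factor for the N module, at −0.43 (95% interval −0.90 to 0.03), and the highest that of OXA1L, the insertase of the inner membrane, at 0.15 (95% interval −0.26 to 0.57). FOXRED1 and NUBPL (an iron-sulfur carrier for complex I) stood at −0.05 and 0.04, TMEM186 and COA1 at −0.03 and −0.05, and DMAC1, DMAC2 and AIFM1 at −0.30, −0.01 and 0.05.

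Of the 37 nuclear subunits on which these factors act, limma called 0. In the 7 core subunits, which carry the redox centres, the median difference was −0.04, from −0.17 in NDUFS7 to 0.07 in NDUFS1. That median rested on single libraries: it was −0.17 without ALDH low 1, −0.10 without ALDH low 2, −0.09 without ALDH high 3, −0.06 without ALDH high 1, 0.08 without ALDH low 3 and 0.03 without ALDH high 2, when 0 of the 7 lay below 0. It was also above 0 with total-count scaling, at 0.0076, and with scaling without the mitochondrial genome, at 0.02. Under these scalings the median of all genes tested was 0.06 and 0.07, against 0.02 with the authors' size factors. NDUFS7, the substrate of NDUFAF5, averaged 5489 ± 1184 in ALDH high cells against 6160 ± 1367 in ALDH low cells (SD, n = 3 each), with a 95% interval of −0.64 to 0.30. The core subunits NDUFS3, NDUFS8 and NDUFV1, of the Q and N modules, stood at −0.08, 0.03 and −0.04. Of the 30 supernumerary subunits, 27 lay below 0, with a median of −0.19, from −0.57 in NDUFB3 (95% interval −1.08 to −0.07, limma adjusted p = 0.984) to 0.11 in NDUFA9. ALDH low 3 held the highest value of 25 of the 30 and of 6 of the 7 core subunits. Without ALDH low 3, 16 of the 30 lay below 0, with a median of −0.04, and without ALDH high 2, 20 of the 30, with a median of −0.07. The core and supernumerary sets were not tested against each other.

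The complex I subunits of the mitochondrial genome lay the other way. Of 7, 6 had differences above 0, with a median of 0.68, and limma called 0. MT-ND1, whose insertion involves NDUFAF6 and TIMMDC1, had 71298, 42951 and 69626 normalized reads in ALDH high libraries 1, 2 and 3, against 20123, 61455 and 49516 in ALDH low libraries 1, 2 and 3. MT-ND2, around which the MCIA complex assembles, had 47257, 23002 and 46009 in ALDH high libraries, against 14791, 41573 and 30478 in ALDH low libraries. In both, ALDH high 1 and 3 and ALDH low 2 were the highest libraries and ALDH low 1 the lowest, and the groups overlapped. MT-ND4L had the highest difference, 0.97 (95% interval 0.16 to 1.78, limma adjusted p = 0.984), and MT-ND3 the lowest, −0.15 (95% interval −0.66 to 0.36). The median was 0.12 without ALDH low 1, 1.03 without ALDH high 2 and 1.04 without ALDH low 2. All transcripts of the mitochondrial genome made up 4.87%, 2.88% and 4.88% of all reads in ALDH high libraries 1, 2 and 3, against 2.003%, 4.52% and 2.98% in ALDH low libraries 1, 2 and 3.

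**Figure D5:**
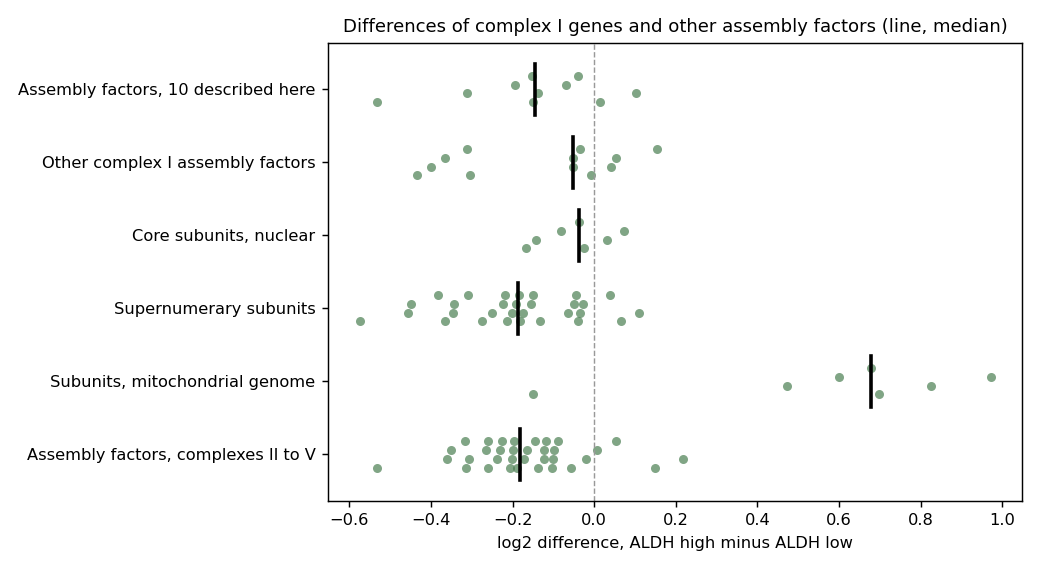
The log2 difference, ALDH high minus ALDH low (horizontal axis), of each gene of 6 lists (rows; the vertical scatter within a row has no meaning), with a line at the median. The medians of the nuclear lists run from −0.19 to −0.04, and that of the 7 complex I subunits of the mitochondrial genome is 0.68.

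By profile over the 6 libraries, the genes most like NDUFAF4 were HIGD1A, FBXO4, LOH12CR2, CCT2 and TEFM, compared with 11505 genes that averaged 100 or more. Likeness was the root-mean-square difference of log2 values centred on their mean, and was 0.05, 0.06, 0.06, 0.08 and 0.08 in that order. HIGD1A, a small inner-membrane protein that binds respiratory complexes, had 1851, 1562 and 1555 normalized reads in ALDH high libraries 1, 2 and 3, against 2779, 2003 and 2249 in ALDH low libraries 1, 2 and 3. FBXO4 had 328, 328 and 333 in ALDH high libraries, against 568, 401 and 440 in ALDH low libraries. LOH12CR2 had 98.4, 101 and 85.7 in ALDH high, against 165, 114 and 132 in ALDH low. CCT2 had 7860, 7952 and 7568 in ALDH high, against 12596, 8564 and 10165 in ALDH low. TEFM, the elongation factor of mitochondrial transcription, had 293, 291 and 281 in ALDH high libraries, against 530, 366 and 360 in ALDH low libraries. A function shared by these genes was not tested. These genes carry the ALDH high to ALDH low step of NDUFAF4 by selection. Of the assembly factors, only the other members and TMEM126B were ranked by this measure. TMEM126B was rank 93, NDUFAF2 rank 266 and NDUFAF5 rank 428, while NDUFAF3 was rank 5148 and NDUFAF1 rank 6674. The remaining complex I factors and those of complexes II to V were not ranked, and some of them may lie as near or nearer.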

How the data were processed

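RNA was measured in 6 LNCaP samples, 3 ALDH high and 3 ALDH low. Reads were trimmed, placed and counted by the authors; their processing notes name Trimmomatic 0.36, the aligner STAR 2.5.2b, featureCounts (Subread 1.5.2) and also DESeq2, on GRCh38. Per the labels' protocols, uniquely placed reads within exons were counted per gene. Strandedness of the libraries is not stated in the labels, so reads of overlapping antisense genes cannot be told apart. The authors deposited 1 table of normalized signal, the read count over a size factor, whose lowest row mean is 9.65. It also holds the authors' log2 fold change, p-value and adjusted p-value. Its 46 spike-in rows were left out of the tests, leaving 16000 genes.

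Whole reads were recovered from the deposited signal, at least 99.99% of the values of each library being whole within 0.02 of a read. A limma fit with a mean-variance trend (version 3.58.1, R 4.3.3) was made on log2(normalized count + 1) over all genes, with Benjamini-Hochberg adjustment and a threshold of 0.05; differences on this scale understate the change of low genes. EdgeR 4.0.16 and DESeq2 1.42.0 on the recovered reads, other pseudocounts, scalings and filters, a replicate block and leaving out each library were alternatives. Exon lengths and coordinates came from GENCODE 29, which holds 15939 of the identifiers. The members, gene lists, motifs and rule for named genes were chosen with earlier results of these data known. The rule names the 10 members, 12 other assembly factors, a substrate and a paralog, the extremes of each list, genes that overlap a member, and the 5 profiles most like NDUFAF4. A result that the rule also names is not reported here.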

Additional observations from a re-analysis of the deposited data

How the results depend on the processing

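No alternative with all 6 libraries, and none that left out 1 of them, called a gene at an adjusted p under 0.05 (range 0 to 0). With both libraries numbered 2 left out, chosen after seeing the data, limma called 107 of 16000 genes (0.669%), 0 of them among the 10 members, where the unadjusted p was under 0.05 in 2454 genes. Of the 170 differences of single members under alternatives, 159 kept their direction and 11 turned in sign. Many of the 159 could not have turned. The filter, the fit without a mean-variance trend and the replicate block leave each difference as it was, and other pseudocounts hardly change it. Under every setting 0 members were called. With single libraries left out, NDUFAF1 ran from −0.24 to 0.12, NDUFAF3 from −0.12 to 0.12, ECSIT from −0.23 to 0.0054 and TIMMDC1 from −0.27 to 0.027, each highest without ALDH low 3. NDUFAF6 ran from −0.049 (without ALDH high 1; −0.026 without ALDH high 3) to 0.12, and NDUFAF7 from −0.24 to 0.050, highest without ALDH high 2. NDUFAF3 stood at 0.0055 with total-count scaling, 0.021 with scaling without the mitochondrial genome and 0.040 without ALDH high 2. The median of all genes was 0.06 with total-count scaling and 0.07 with scaling without the mitochondrial genome. It was 0.02 with the authors' size factors. NDUFAF7 stood at 0.069 without both libraries numbered 2. NDUFAF4, whose groups do not overlap and which was picked for this difference, could not turn in sign with a library left out and ran from −0.63 to −0.41. The median of the members ran from −0.18 to 0.016 when single libraries were left out. That of the nuclear core subunits ran from −0.17 to 0.084 and so turned in sign, while those of the remaining lists kept theirs. The medians of the other 5 lists moved by less than their SD between replicates. Leaving out 1 of 3 libraries can hardly move a median by more, so this says little. The list of subunits of the mitochondrial genome gave no value with scaling without that genome.

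Same-numbered libraries did not deviate together. The correlations of their deviations across 11506 genes were −0.46, −0.43 and 0.14 for numbers 1, 2 and 3. Whether libraries of the same number shared a sort cannot be told from these values, since the first principal component set such libraries apart. With the replicate block, limma called 0 genes, the differences were the same and 226 genes had an unadjusted p under 0.05. Each member had at least 315 reads in every library, and the parts of counting error and of other spread were not told apart.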

Other observations

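Assembly factors of the other respiratory complexes, not described above, lay mostly on the same side as those of complex I. Of 34 such genes for complexes II to V, 30 had log2 differences below 0, with a median of −0.18, and limma called 0. Without ALDH low 3 the median was −0.09, and without ALDH high 2 it was −0.11, with 24 of the 34 below 0. The lowest was COX16, a factor for cytochrome c oxidase, with 1070 ± 155 reads in ALDH high cells against 1581 ± 444 in ALDH low cells (SD, n = 3 each), a difference of −0.53 (95% interval −1.02 to −0.05, limma adjusted p = 0.984). The highest was COX15, an enzyme of haem A synthesis, at 977 ± 98.1 in ALDH high cells against 842 ± 99.04 in ALDH low cells, a difference of 0.22 (95% interval −0.14 to 0.57). ALDH low 3 held the highest value of 17 of the 34 and ALDH low 1 that of 12, and ALDH high 2 held the lowest of 17.

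Exons of NDUFAF3, NDUFAF7 and ACAD9 are overlapped on the opposite strand by genes of the table. DALRD3 shares 21.7% of the exon bases of NDUFAF3 and had a difference of −0.03, beside −0.04 for NDUFAF3. KIAA1257 shares 10.5% of those of ACAD9 and had a difference of 0.02 at 204 ± 21.9 in ALDH high cells against 201 ± 12.6 in ALDH low cells. PRKD3 and CEBPZ share 7.26% and 2.27% of those of NDUFAF7 and had differences of 0.22 and −0.23. ZNF653 shares 0.338% of those of ECSIT on the same strand and had a difference of −0.26. CD80, which overlaps 29.2% of the exon bases of TIMMDC1 on the opposite strand, was not among the genes of the table, so no difference can be given for it.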
